A study of Drosophila melanogaster with 4 samples.

Results

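Gene expression in old Canton-S flies was set against that in young ones, both kept on food without curcumin, over every gene that the arrays could measure at one age or the other. Probe sets naming a single gene were taken where the deposited log2 value was 5 or above, that is 32 signal units, on at least 1 of the 2 arrays. This gave 9389 of 18769 probe sets and 8852 of 11982 genes, a choice that used level and not the difference between the ages. The lowest members, CG16959, CG12783 and CG14298, had a higher signal of 32.01 to 32.02, and the genes just outside, CG32576, CG9863 and sff, of 31.94 to 31.98. Genes on lists of antimicrobial, immune and digestive genes stayed in all overall counts and are otherwise not described, except where they serve as tissue markers or stand on another list as well.

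The old pool held flies of 40 days and the young pool flies of 1 to 3 days, from the wild-type laboratory strain Canton-S of Drosophila melanogaster, with no transgene or mutant allele named in the labels. The young age is not given alike throughout, since the array titles say day 1, the sample labels 1 to 3 days and the design text 3 days. The range of the sample labels is used here. Per the labels a pool combined 30 males with 30 females, and whole-fly RNA was hybridised to 1 Affymetrix Drosophila Genome 2.0 array per group. A second pair of pools, old and young flies on food with 100 µM curcumin, a polyphenol of turmeric, shared no array with the first and is given beside it. Nothing in the labels says that the pools came from separate cultures, there was no second array in any group, and precision is limited by the number of arrays. No difference therefore has a replicate check or a p-value, and genes are called higher or lower past 2-fold as a description of these arrays. The comparison addresses how expression differs with age on plain food.

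Adult flies do not replace most of their cells. Their flight muscle is packed with mitochondria and contracts by a stretch-activated mechanism that needs its own actin, troponin and flightin. Male flies make seminal fluid in the accessory glands and sperm in the testis, and the testis uses duplicate gene copies of many housekeeping proteins. In the first days after eclosion the cuticle, the lens and the flight muscle are still maturing.

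The reproductive genes did not match the labelled mixture of sexes. Of 28 yolk, eggshell and oocyte genes, listed after their values were seen, 1 was at 32 signal units or above, and it was the same gene on all 4 arrays. This was the yolk protein gene Yp3, with 49.1 in the old pool and 44.0 in the young pool, and 58.2 in the old and 54.4 in the young pool with curcumin. The other 27 were below that level on every array. Yp1 read 9.79 in the old pool and 13.5 in the young pool, and the eggshell genes Vm32E and Cp18 and the oocyte genes vas, osk and otu were below 32 everywhere. Seminal fluid genes were above it in most cases, with the sex peptide gene SP at 1300 in the old pool and 3875 in the young pool. Testis genes were mixed, since can and aly were below it on all 4 arrays. A wider germline and oogenesis list had 10 of 27 genes measured, among them grk (291 in old, 291 in young) and exu (315 and 536), the second of which also acts in the male germline. A list of 20 yolk and eggshell genes had Yp3 and CG14834 (7.81 in old, 42.3 in young) measured. The cause of the near absence of yolk and eggshell signal was not tested. Other tissues were visible through the fat body lipoprotein gene apolpp (4158 in the old pool and 5731 in the young pool) and the glial gene repo (172 and 135). Further markers with signal were the neuronal genes elav (146 and 189) and nSyb (112 and 112) and the gut protease gene Jon99Ci (250 and 2307). Not all markers of these tissues were measured, since the fat body gene Fbp1 read 1.14 in the old pool and 2.18 in the young pool. The neuronal gene brp read 11.0 in the old pool and 32.7 in the young pool. Of the blood cell markers, NimC1 (391 in old, 99.2 in young) and eater (93.9 and 24.9) were past 2-fold higher in old flies. Hml (343 in old, 173 in young) had more signal in old flies but was short of 2-fold, and He was below 32 on both arrays.

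**Figure D1:**
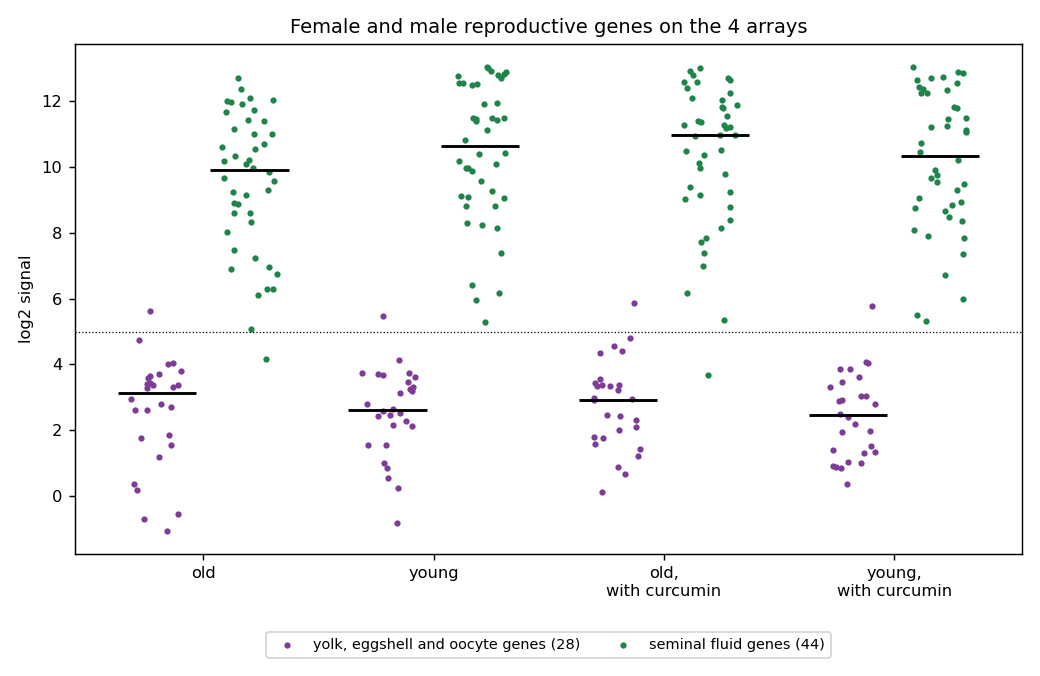
Log2 signal of 28 yolk, eggshell and oocyte genes and 44 seminal fluid genes on the 4 arrays, 1 point per gene, with bars at the medians and a dotted line at log2 5. On each array 1 female gene, Yp3, lies above the line, and the seminal fluid genes sit lowest as a group in old flies without curcumin.

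In old flies 395 of 8852 genes (4.46%) were at least 2-fold higher and 731 (8.26%) were lower by 2-fold or more than in young flies. The median log2 difference over all genes was 0.02, and 5349 genes, or 60.4%, lay within 0.5 of 0 on the log2 scale. Both ages could be measured for 7885 genes, while 660 were below 32 in old flies alone and 307 in young flies alone. Outside the immune and digestive lists, 360 were higher and 674 lower among 8703 genes, 19 and 68 of them by 4-fold or more, and 1 and 14 by 8-fold or more. Of the same 8703 genes, 4514 had a value above 0 and 4189 a value below 0. As a measure of how far 2 arrays of the same age lie apart, young flies with and without curcumin differed at least 2-fold for 49 of 8716 genes (0.562%). Old flies with and without curcumin did so for 495 of 8689 (5.7%), so that arrays of the same age were not always this close. Genes named only by a CG number made up much of the lower side, with 428 of 3586 compared at least 2-fold lower and 115 higher. Making the array medians equal shifted the median of all genes to 0.20 and gave 675 higher and 540 lower genes, so that 55.6% of called genes were higher, in place of 35.1%. Equal 2% trimmed means (361 higher, 754 lower) and quantile normalization (387 and 695) kept more lower than higher genes. The larger number of lower genes thus held under those scalings and not under equal medians.

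**Figure D2:**
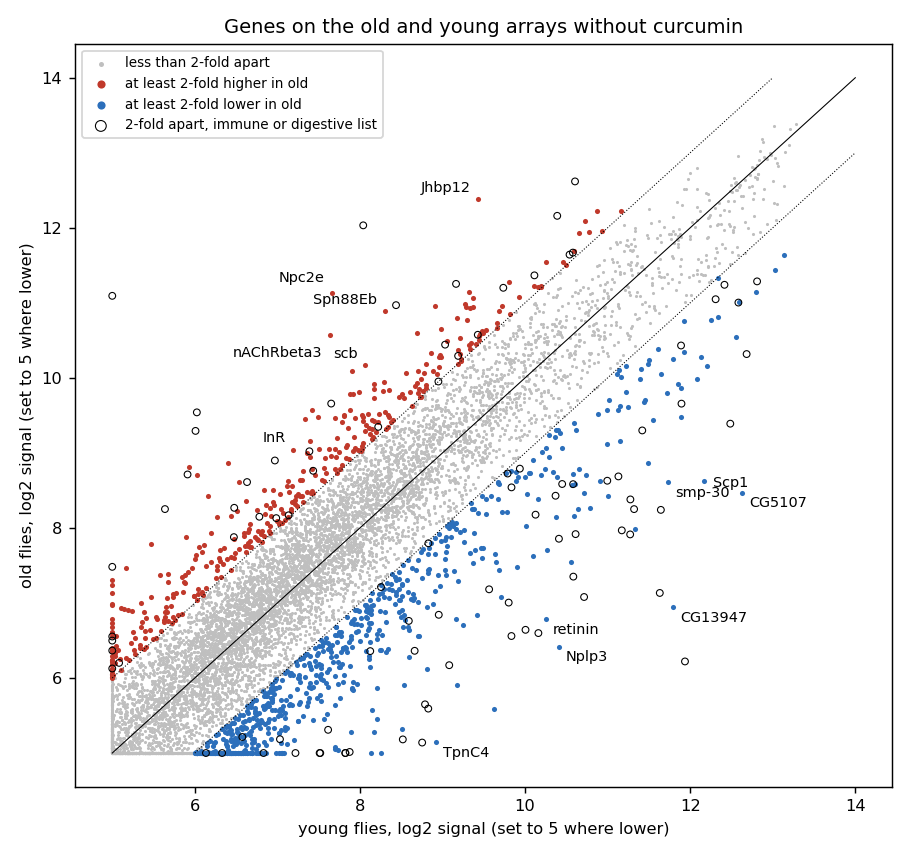
Log2 signal in old flies (vertical) against young flies (horizontal) without curcumin for 8852 genes, with signals below log2 5 drawn at 5. Dotted lines mark 2-fold; 395 genes lie above them and 731 below, and open circles are the called genes of the immune and digestive lists.

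Outside the immune and digestive lists, the genes highest in old flies relative to young ones were led by a sterol carrier and a juvenile hormone binding protein. Npc2e, of the Niemann-Pick type C2 family that carries sterols, read 2241 in the old pool and 203 in the young pool and was 11.1-fold higher. Jhbp12, of a family of juvenile hormone binding proteins, read 5357 in the old pool and 692 in the young pool (7.74-fold). The acetylcholine receptor subunit gene nAChRbeta3 had 1517 in the old pool and 199 in the young pool (7.64-fold), while the other 5 subunits measured had log2 differences of -0.72 to 0.34. Ugt37C2, an enzyme that joins sugars to small molecules, read 451 in the old pool and 60.8 in the young pool (7.42-fold). The remaining genes of the 25 largest were between 3.54-fold and 6.41-fold higher and covered several functions. They held 3 protease inhibitors of the serpin family, Spn88Eb (1902 in old, 315 in young), Spn28Dc (762 and 172) and Spn43Ad (283 and 76.9). They also held the integrin alpha subunit gene scb (1152 in old, 266 in young), the scavenger receptor gene Sr-CI (710 and 180), the metallothionein gene MtnD (393 and 93.1), and the chitinase-like growth factor gene Idgf1 (1554 and 413). Dopa decarboxylase, Ddc, which makes dopamine and serotonin and feeds cuticle tanning, read 884 in the old pool and 236 in the young pool, and the insulin receptor gene InR read 528 and 146. The noncoding gene lncRNA:CR42862 had log2 differences of 2.19 and 2.27 in its 2 probe sets. The CG-named genes CG7381, CG2111, CG17264, CG32984, CG11425, CG44774, CG7017, CG13313 and CG9451, with sel and Alr, completed the 25.

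Of these 25 genes, 24 were also higher in old than in young flies with curcumin and 18 at least 2-fold. The exception was Ddc, which read 231 in the old and 236 in the young pool with curcumin. Genes below 32 in young flies give only a lower bound. The largest were CG16995, with 159 in the old pool and 13.6 in the young pool (at least 4.96-fold higher), and the growth factor gene Pvf2, with 151 in the old pool and 28.5 in the young pool (at least 4.71-fold). CG13215, CG11854, CG18557, CG31036, Ids, which encodes a lysosomal sulfatase, and CG42335 followed, with bounds of 4.40-fold to 3.19-fold.

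Outside the same lists, the genes lowest in old flies relative to young ones encode proteins of the flight muscle, the lens and seminal fluid, a neuropeptide-like precursor and many proteins named only by a CG number. CG13947 read 123 in the old pool and 3556 in the young pool and was 29.0-fold lower, CG5107 read 354 and 6342 (17.9-fold), and CG12057 read 47.9 and 787 (16.4-fold). The probe sets of CG13947 and, among the higher genes, of CG44774 carry the suffix x_at, and whether they cross-hybridise was not tested. The neuropeptide-like precursor gene Nplp3 read 85.2 in the old pool and 1359 in the young pool, 15.9-fold lower. The corneal lens gene retinin read 110 in the old pool and 1219 in the young pool (11.1-fold), and Obp99b, an odorant-binding protein gene, read 254 and 2569 (10.1-fold). The smp-30 gene, for a regucalcin-like protein named after a mammalian senescence marker, read 390 in the old pool and 3389 in the young pool and was 8.69-fold lower. With curcumin it read 2208 in the old pool and 3396 in the young pool. The muscle genes TpnC4, Scp1 and fln and the seminal fluid genes Acp53C14c and BG642312 also stood among the 25 lowest. Further members were the alkaline phosphatase gene Alp5 (38.8 in old, 238 in young), AANATL3, of a family of arylalkylamine acetyltransferases (32.8 and 213), and CG18404, CG33290, CG7542, CG6403, CG8661, CG7203, CG31883, CG31104, CG11149, CG11211 and CG7409. All 25 were lower in old flies with curcumin too, and 16 of them at least 2-fold.

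For genes below 32 in old flies the fold is again a bound. CG7768 read 30.0 in the old pool and 307 in the young pool, at least 9.58-fold lower, and CG9682 read 23.3 and 281, at least 8.79-fold lower. The testis bromodomain gene tbrd-1 read 28.9 in the old pool and 126 in the young pool (at least 3.94-fold). Osi6, of the Osiris family of cuticle-forming cells, read 3.69 in the old pool and 133 in the young pool (at least 4.15-fold) and was the only one of 24 Osiris genes on the array to reach 32 on either of the 2 arrays. It read 7.81 in the old and 1.30 in the young pool with curcumin, so that it was measured in 1 pool of 4.

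**Figure D3:**
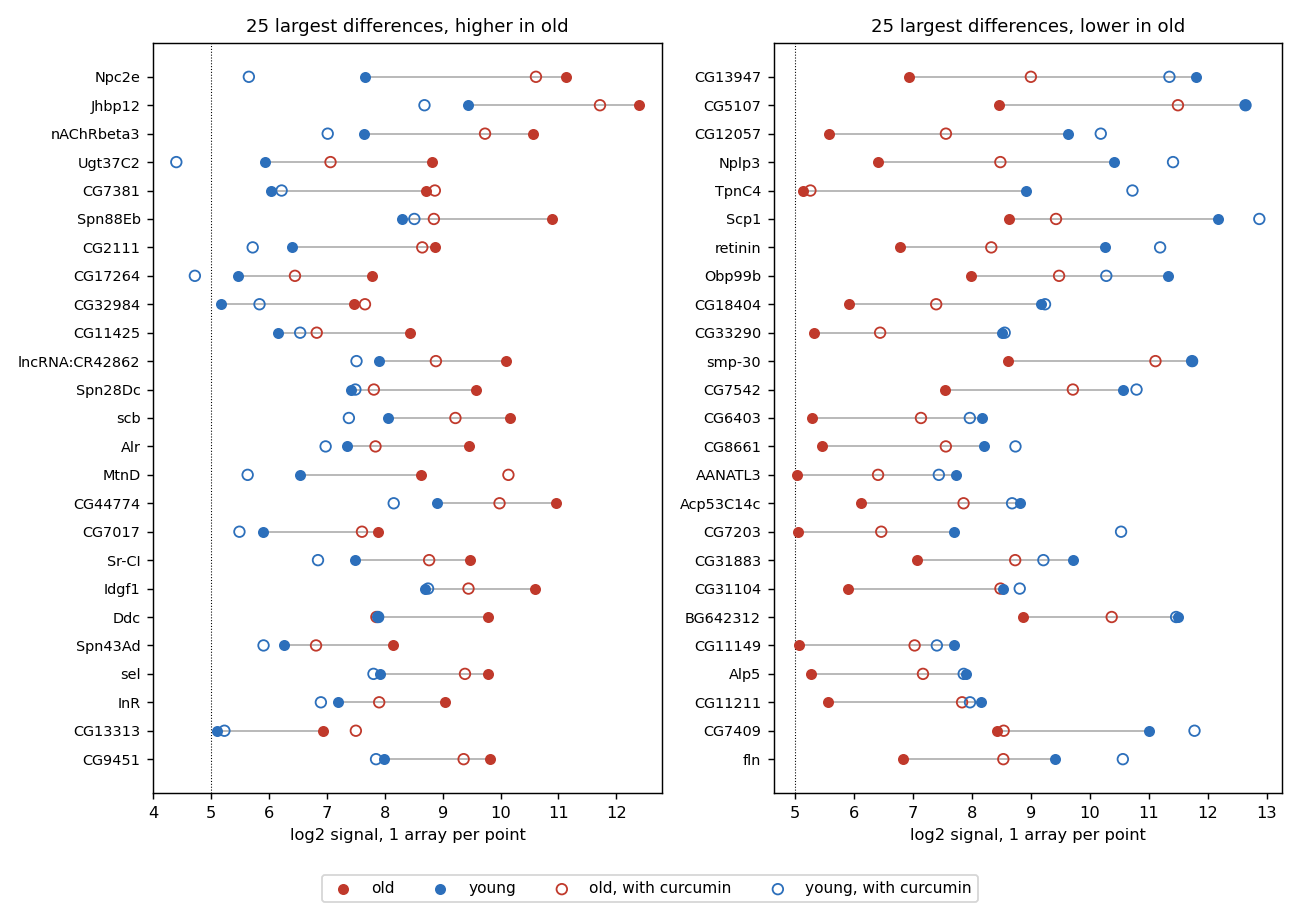
Log2 signal on each of the 4 arrays for the 25 genes furthest up and the 25 furthest down in old flies without curcumin, among genes measured at both ages and on no immune or digestive list. Filled points are flies without curcumin and open points flies with it; the dotted line is log2 5.

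Many genes of the contractile apparatus were lower in old flies, several flight muscle genes among them. The flight muscle marker Tm2 differed less, with 659 in the old pool and 949 in the young pool. Of 29 measured genes on 3 muscle lists, 12 were at least 2-fold lower and 1 higher, with a median log2 difference of -0.63. Over all genes 8.26% were at least 2-fold lower and 4.46% higher. The flight muscle troponin C gene TpnC4 read 35.4 in the old pool and 485 in the young pool (13.7-fold lower), against 38.4 and 1686 with curcumin. Scp1, a sarcoplasmic calcium-binding protein, read 394 in the old pool and 4604 in the young pool (11.7-fold). A second troponin C gene, TpnC41C, read 305 and 1599 (5.24-fold), whereas TpnC73F was higher, with 304 in the old pool and 143 in the young pool (2.13-fold). The calcium pump gene SERCA read 1795 in the old pool and 5178 in the young pool (2.88-fold lower), and up, which encodes troponin T, read 216 and 531 (2.45-fold lower).

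Among filament genes the same pools differed most in actins and in proteins that set filament length and stiffness. The flight muscle actin gene Act88F read 284 in the old pool and 1323 in the young pool (4.67-fold lower), and the actin gene Act79B read 694 and 2987 (4.31-fold lower). Flightin, fln, which binds the thick filaments of flight muscle, read 115 in the old pool and 682 in the young pool (5.96-fold lower), the titin-like sls 184 and 661 (3.58-fold), and myofilin, Mf, 2057 and 6185 (3.01-fold). The muscle LIM gene Mlp84B (779 in old, 2424 in young) and the obscurin gene Obsc (177 and 396) were also past 2-fold. Not all muscle genes followed, since tsr, the actin-severing cofilin, read 4798 in the old pool and 4437 in the young pool, and talin, rhea, read 1131 and 768. Probe sets of a gene agreed in sign for SERCA (-1.53 and -2.83) and Mf (-1.59 and -0.57), with unequal size, and disagreed for Mlp60A (-0.44 and 0.65) and Strn-Mlck (0.34 and -1.14). The value of Mlp60A is the median of its list of thin filament, Z-disc and M-line genes. In pooled whole flies, fewer cells of a type and less RNA per cell cannot be told apart, here or in any group that follows.

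Mitochondrial energy genes had values below 0 almost throughout, few of them past 2-fold. Of 74 genes of the tricarboxylic acid cycle and of standard subunits of respiratory complexes I, III and IV and the ATP synthase, 73 had a value below 0, with a median of -0.61 against 0.02 for all genes, and 2 were at least 2-fold lower. These were ND-B8 of complex I, with 81.1 in the old pool and 201 in the young pool, and the malic enzyme gene Men-b, with 305 and 656. The rest ran from -0.98 (ND-B17) to 0.06 (ND-SGDH). Towards the lower end, ATPsynbeta, the catalytic subunit of the ATP synthase, read 2958 in the old pool and 5209 in the young pool (1.76-fold lower), mitochondrial aconitase, mAcon1, 2529 and 4888 (1.93-fold), and the complex III gene UQCR-14 2482 and 4783 (1.93-fold). With curcumin the same 74 genes had a median of -0.74, 71 were below 0 and 10 were at least 2-fold lower. When array medians were made equal the 4 list medians kept their sign. Glycolysis and trehalose genes had a median of -0.30 with 0 of 18 past 2-fold in either direction. Over all genes 8.26% were at least 2-fold lower. These counts use the brightest probe set of a gene. The next one was past 2-fold lower for Gpdh1 (-1.18, brightest -0.88), ND-B17 (-1.04, brightest -0.98) and the complex IV gene COX7C (-1.74, brightest -0.64). For ATPsynbeta the next one was closer to 0 (-0.35, brightest -0.82). The mitochondrial phosphate carrier gene Mpcp1 stood out among transporters, with 416 in the old pool and 1714 in the young pool (4.12-fold lower), and it read 735 and 3231 with curcumin.

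Second gene copies of the same respiratory subunits differed by more. The fly genome holds duplicates of many subunits, which are used mainly in the testis. Of 18 such copies measured, 14 were lower by 2-fold or more in old flies and 0 higher, and the list median was -1.26. Over all genes 8.26% were lower and 4.46% higher by that much. ATPsynCF6L read 57.9 in the old pool and 239 in the young pool (4.13-fold lower), ATPsynGL 76.4 and 275 (3.60-fold), UQCR-11L 70.6 and 217 (3.07-fold) and COX4L 201 and 455 (2.26-fold). With curcumin none of them was past 2-fold, the median was -0.27, and COX4L read 327 in the old pool and 368 in the young pool.

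Further gene copies in other protein complexes were also lower in part. Of 10 testis-type proteasome subunits, 4 were at least 2-fold lower, with a median of -0.86, among them Prosalpha6T with 53.3 in the old pool and 122 in the young pool, whereas 0 of 26 standard subunits were past 2-fold and their median was 0.17. The standard subunit gene Prosalpha6 read 1067 in the old pool and 717 in the young pool. In the vacuolar proton pump, 6 of 30 genes were at least 2-fold lower, namely Vha16-5 (39.5 in old, 136 in young), VhaPPA1-2, Vha16-3, VhaM9.7-d, VhaAC39-2 and Vha100-3, each a further copy of a subunit. None of these 6 was past 2-fold with curcumin. Single genes of this kind were the cap-binding gene eIF4E3, needed for sperm formation in this species, with 336 in the old pool and 1144 in the young pool (3.41-fold lower), and the chaperonin gene Hsp60B, which acts in sperm individualisation, with 41.5 and 107 (2.59-fold lower). The copper transporter gene Ctr1C read 14.2 in the old pool and 74.5 in the young pool and was at least 2.33-fold lower. The sperm-specific tubulin gene betaTub85D read 592 in the old pool and 1312 in the young pool (2.22-fold lower), against 815 and 1055 with curcumin. Other sperm genes were closer to even or above 0, such as Mst87F (248 in old, 328 in young) and Mst85C (114 and 76.4). In 39 genes of sperm structure 4 were at least 2-fold lower and 0 higher, with a median of -0.39. The list of meiotic arrest genes, which switch on spermatid transcription, had 1 of 10 past 2-fold (sa, at least 2.09-fold lower). Its median was -0.64, with 6 of the 10 values bounds. Over all genes, 8.26% were at least 2-fold lower.

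Seminal fluid genes were lower in old flies without curcumin. Of 44 measured, 19 were at least 2-fold lower and 0 higher, against 8.26% and 4.46% of all genes, and the median was -0.93. Their signals summed to 69476 in the old pool and 125931 in the young pool, and to 114156 in the old and 110841 in the young pool with curcumin. Sex peptide, SP, which switches the female to egg laying after mating, read 1300 in the old pool and 3875 in the young pool (2.98-fold lower), and 3031 in the old and 3580 in the young pool with curcumin. The sperm storage protein gene Acp36DE read 4072 in the old pool and 6652 in the young pool. The largest differences were in Acp53C14c (69.6 in old, 451 in young, 6.47-fold lower), BG642312 (467 and 2876, 6.15-fold), Sfp33A3 (178 and 953, 5.35-fold) and Sfp24Bb (1493 and 6010, 4.03-fold). The ejaculatory bulb protein genes Ebp and EbpII were lower too, with Ebp at 3175 in the old pool and 8998 in the young pool (2.83-fold lower) and EbpII at 2779 and 8372 (3.01-fold lower). A few members went the other way, and CG17575, needed for sex peptide to bind sperm, read 2696 in the old pool and 1377 in the young pool (1.96-fold higher). With curcumin the list median was 0.13, with 6 genes at least 2-fold higher and 1 lower.

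Among genes of smell and taste, odorant-binding protein genes were the main group measured, and receptors were mostly not measurable in whole flies. Of 26 odorant-binding protein genes measured, 10 were at least 2-fold lower, 0 higher and 25 below 0, with a median of -0.69. Over all genes 8.26% were at least 2-fold lower, and 4189 of 8703 outside the immune and digestive lists were below 0. Obp99a read 157 in the old pool and 585 in the young pool (3.72-fold lower), Obp56a 166 and 525 (3.17-fold), Obp57a 142 and 480 (3.37-fold) and Obp28a 158 and 380 (2.40-fold). The list is not purely sensory, since Obp22a (108 in old, 317 in young) and Obp51a (1224 and 3559) encode seminal fluid or male tract members of the family. With curcumin the median was -0.12 and 0 genes were at least 2-fold lower. Of 18 other olfactory binding and degradation genes, 2 were higher and 2 lower past 2-fold, with a median of -0.28. The binding protein gene Phk-3 read 960 in the old pool and 448 in the young pool (2.15-fold higher), and Os-C read 162 and 343 (2.12-fold lower). Only 4 of 110 odorant and ionotropic receptor genes reached 32 signal units, and the co-receptor gene Orco read 59.9 in the old pool and 59.8 in the young pool.

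On the lists of eye genes, read in whole-fly RNA, those past 2-fold were of the lens, of pigment and of vitamin A handling. Of 9 lens and pigment genes 1 was higher, the lens cuticle gene Cpr72Ec (213 in old, 81.5 in young, 2.62-fold), and 2 were lower, retinin and se, with a median of -0.10 that became 0.08 with equal array medians. The arrestin gene Arr2 read 3856 in the old pool and 3421 in the young pool, and the channel gene trp read 420 and 269. Of 22 phototransduction genes 3 were at least 2-fold lower, against 8.26% of all genes, and these 3 act in making or recycling the chromophore. They were the scavenger receptor ninaD, which takes up carotenoids, with 15.9 in the old pool and 114 in the young pool (at least 3.58-fold), the retinoid dehydrogenase Pdh, with 731 and 1884 (2.58-fold), and the oxygenase ninaB, with 60.4 and 123 (2.03-fold). The pigment synthesis gene se read 27.4 in the old pool and 76.0 in the young pool, at least 2.37-fold lower.

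Cuticle and chitin genes held members of opposite sign. Of 110 cuticle protein genes on the array, 20 could be measured, 6 were at least 2-fold lower and 1 higher, with a median of -0.41. Over all genes 8.26% were lower and 4.46% higher by that much. Cpr65Au read 934 in the old pool and 3802 in the young pool (4.07-fold lower), Cpr49Ab 110 and 374 (3.41-fold) and Cpr49Ae 78.8 and 276 (3.50-fold), and the higher one was Cpr72Ec. Among 28 genes of chitin metabolism and binding, 5 were at least 2-fold higher and 4 lower. The 5 were the chitinase gene Cht4 (849 in old, 371 in young) and 4 of the imaginal disc growth factors, chitinase-like secreted proteins without enzyme activity. These were Idgf1, Idgf2 (3319 in old, 1538 in young), Idgf3 (4358 and 1701) and Idgf5 (972 and 412). The 4 lower genes were Peritrophin-15a (166 in old, 492 in young), the gut chitin synthase gene Chs2 (48.1 and 131), Muc68E (77.5 and 200) and obst-A (11.9 and 76.0, at least 2.37-fold).

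Extracellular matrix and adhesion genes had values above 0 in old flies, some of them past 2-fold. Among genes outside the immune and digestive lists 4514 of 8703 were above 0, and 4.46% of all genes were at least 2-fold higher. All 20 measured matrix and adhesion genes were above 0, with a median of 0.63, and 6 were at least 2-fold higher. Beside scb these were multiplexin, Mp, a basement membrane collagen, with 705 in the old pool and 208 in the young pool (3.39-fold), the ADAMTS-like gene loh (99.2 and 48.0), peroxidasin, Pxn, which cross-links collagen (288 and 141), the laminin gene LanA (276 and 136) and the integrin beta gene mys (855 and 425), the last 4 at 2.06-fold to 2.01-fold. The collagen gene Col4a1 read 785 in the old pool and 406 in the young pool, 1.93-fold. Basement membrane perlecan, trol, read 138 and 137, and nidogen, Ndg, 41.6 and 41.1. In a list of 10 growth factor ligands and receptors, made after the values were seen, 3 were past 2-fold, all higher. The receptor gene Pvr, of the platelet-derived growth factor type, was 3.19-fold higher, with 921 in the old pool and 289 in the young pool, as were its ligands Pvf1 (529 and 181, 2.92-fold) and Pvf2. With curcumin Pvr read 522 in the old pool and 200 in the young pool and Pvf1 313 and 123. The blood cell markers Hml, NimC1 and eater also had more signal in old flies, as given above, while He was not measurable. The part of blood cells in these differences was not tested.

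In the insulin pathway 2 of 20 genes were higher past 2-fold, 0 were lower, and the median was 0.32. Besides InR, the kinase gene Akt read 645 in the old pool and 233 in the young pool (2.78-fold higher), and both were higher with curcumin as well (InR 239 in the old pool and 119 in the young pool, Akt 337 and 171). The insulin-binding inhibitor gene ImpL2 read 1368 in the old pool and 758 in the young pool, 1.81-fold, and the ligand gene Ilp5 46.7 and 76.5. Outside the immune and digestive lists 4514 of 8703 genes were above 0, and 4.46% of all genes were at least 2-fold higher. Of 20 genes of the JNK and p38 kinases and the DNA damage response, 19 were above 0, with a median of 0.59, and 2 were past 2-fold. They were the upstream kinase gene msn (316 in old, 125 in young, 2.53-fold) and the Ku70 repair gene Irbp (170 and 60.3, 2.82-fold). The JNK phosphatase gene puc read 609 in the old pool and 340 in the young pool, 1.79-fold, and p53 read 195 and 107, 1.82-fold.

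Stress and detoxification genes differed gene by gene. The metallothioneins, small metal-binding proteins, gave MtnB at 167 in the old pool and 51.2 in the young pool (3.26-fold higher) and MtnD as above, while MtnC read 267 and 485. With curcumin MtnD read 1125 in the old pool and 49.5 in the young pool and MtnB 562 and 36.2. The iron carriers Tsf2 (530 in old, 197 in young, 2.69-fold) and Tsf3 (161 and 76.4, 2.11-fold) and the metal transporter gene Mvl (324 and 123, 2.64-fold) were higher. Of 70 cytochrome P450 genes 8 were higher and 3 lower past 2-fold, against 4.46% and 8.26% of all genes. The higher ones included Cyp6a13 (2133 in old, 660 in young, 3.23-fold), Cyp6d2 (350 and 131, 2.67-fold) and Cyp312a1 (4767 and 1868, 2.55-fold), and the lower ones were Cyp6a23 (120 and 363, 3.03-fold), Cyp12a4 (424 and 1071, 2.52-fold) and Cyp4ae1 (42.2 and 87.8, 2.08-fold). The glutathione transferases GstE1 (1958 in old, 646 in young, 3.03-fold) and GstE3 (1851 and 903, 2.05-fold) were the 2 of 30 past 2-fold. Of 17 antioxidant enzyme genes 1 was at least 2-fold higher, the immune-regulated catalase gene Irc (3902 in old, 1612 in young), and 1 lower, the thioredoxin reductase gene Trxr2 (41.2 and 83.8).

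Protein synthesis genes were close to even, and folding genes varied. By their brightest probe set, cytosolic ribosomal protein genes lay between -0.30 and 0.23 on the log2 scale, with 0 of 29 past 2-fold. Another 48 names of that list were not found among single-gene probe sets. The next probe set of RpL3 had 1.22, against 0.02 for its brightest, while RpS29 had -0.31 and 0.06 and RpS30 0.07 and -0.10. All 8 genes of the cytosolic chaperonin CCT, which folds actin and tubulin, were above 0, with a median of 0.65, and CCT2 read 2369 in the old pool and 1143 in the young pool (2.07-fold higher). The autophagy receptor gene ref(2)P, whose protein gathers on aggregates in old flies, read 4213 in the old pool and 2353 in the young pool, 1.79-fold. The chaperone gene Hsc70-1 read 174 in the old pool and 522 in the young pool (3.00-fold lower). Of 27 translation factor genes, eIF4E3 alone was past 2-fold.

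Lipid carriers differed in both directions. Besides Npc2e, the lipoprotein receptor gene LpR2 (1751 in old, 629 in young, 2.78-fold), the lipid transfer genes Mtp (891 and 418, 2.13-fold) and Apoltp (2385 and 1171, 2.04-fold) were higher. The other Npc2 family members past 2-fold were lower, with Npc2h at 352 in the old pool and 1676 in the young pool (4.76-fold), Npc2d at 71.0 and 279 (3.93-fold), Npc2g at 410 and 1337 (3.26-fold) and Npc2f at 89.0 and 233 (2.62-fold). The larval storage protein gene Lsp2 read 197 in the old pool and 1096 in the young pool and was 5.57-fold lower. Of 24 genes of fatty acid synthesis and modification, 1 was past 2-fold, the elongase gene CG8534 (69.8 in the old pool and 26.2 in the young pool, at least 2.18-fold higher). In 9 alkaline phosphatase genes, a family listed after its values were seen, 5 were at least 2-fold lower, among them Alp5, Alp9 (127 in old, 472 in young, 3.73-fold) and Alp10 (195 and 711, 3.65-fold). Over all genes 8.26% were at least 2-fold lower and 4.46% higher. The gut protease genes Jon99Ci (250 in old, 2307 in young) and alphaTry (6039 and 8988) also had less signal in old flies, the first past 2-fold and the second not, and the part of gut tissue in these differences was not tested.

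Neuronal genes as a list had a median near that of all genes. Of 37 synaptic and neuronal genes 1 was past 2-fold, Ddc, and the median was 0.00. Neuropeptide genes had Nplp3 and CCHa2 (261 in old, 558 in young, 2.13-fold) lower and Ptth, the prothoracicotropic hormone of larvae, higher (75.7 and 25.3, at least 2.37-fold). Of 12 glial genes 3 were at least 2-fold higher, against 4.46% of all genes. They were Gli (396 in old, 140 in young, 2.83-fold), loco (424 and 192, 2.21-fold) and moody (906 and 435, 2.08-fold). The list median was 0.21, and with curcumin it was -0.07 with 1 gene at least 2-fold higher. The other 9 were within 2-fold, with 5 below 0, among them alrm (106 in old, 125 in young) and Inx2 (196 and 262). The glial marker repo read 172 in old and 135 in young flies. None of 14 clock genes and none of 11 sirtuin, deacetylase and acetyltransferase genes was past 2-fold.

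Serpins, another family listed after its values were seen, split along the seminal fluid list. Of 24 measured, 7 were at least 2-fold higher and 4 lower, against 4.46% and 8.26% of all genes. The higher ones were Spn88Eb, Spn28Dc, Spn43Ad, Spn88Ea (2258 in old, 642 in young, 3.52-fold), Spn27A, which holds back melanisation (1485 and 595, 2.50-fold), Spn42Da (1415 and 651, 2.17-fold) and nec, an inhibitor of Toll activation (3257 and 1530, 2.13-fold). The 4 lower ones, Spn77Bb (2272 in old, 7142 in young, 3.14-fold), Spn77Bc, Spn28B and Spn28F, were all on the seminal fluid list. The clotting gene fon read 4804 in the old pool and 2288 in the young pool (2.10-fold higher), the amino acid transporter chain gene CD98hc 3957 and 1749 (2.26-fold) and the cytokine gene Gbp2 3990 and 1949 (2.05-fold).

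**Figure D4:**
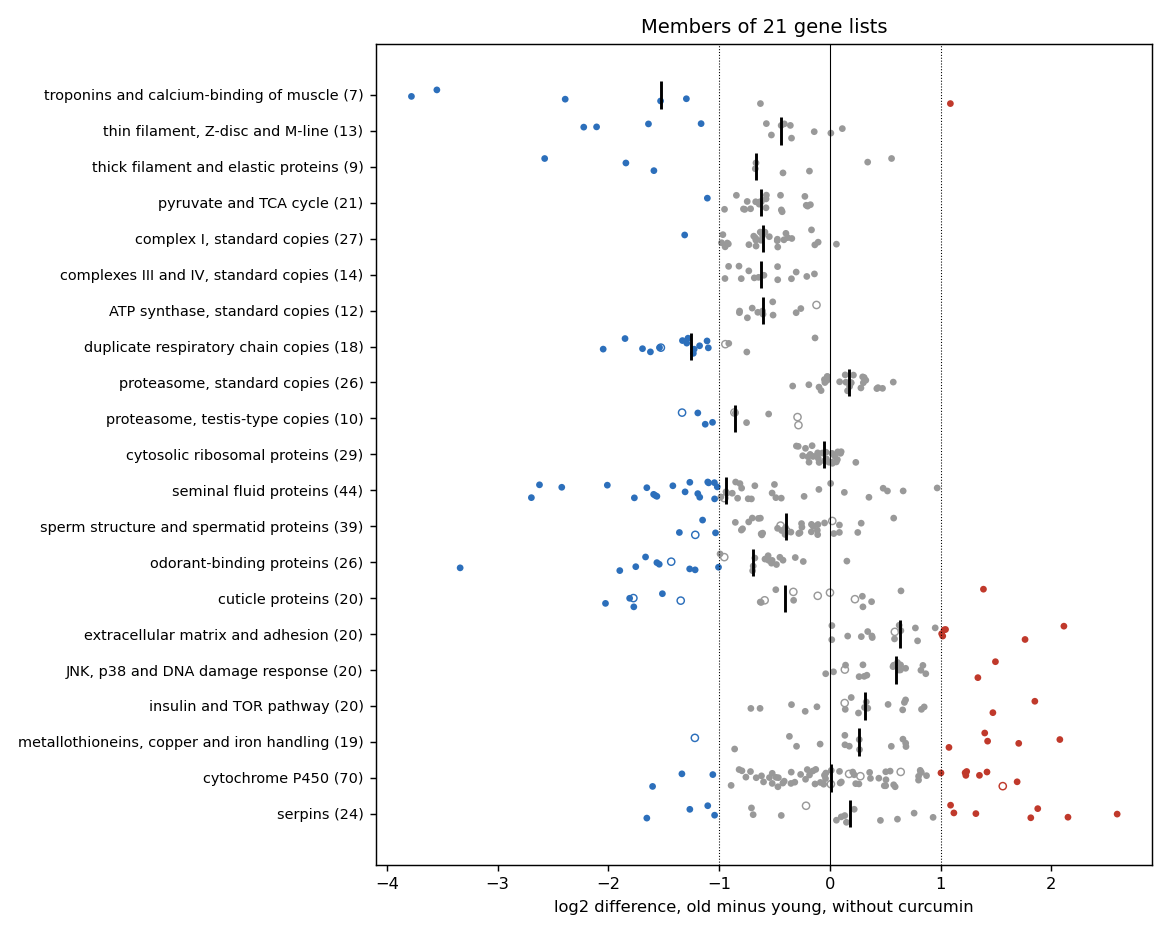
Log2 difference, old minus young without curcumin, of the members of 21 lists, 1 point per gene, with a bar at each list median and the number measured in brackets. Open points are bounds and dotted lines mark 2-fold; the standard respiratory lists lie near -0.6 and their duplicate copies near -1.3.

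Some called genes lay side by side in the genome, judged by gene order in the gene table of assembly Release 6. Runs of at least 3 neighbouring protein-coding genes, all past 2-fold in the same direction, numbered 11 on the lower side, with 38 genes. The higher side had 1, Idgf1, Idgf2 and Idgf3. Lower genes were also the more numerous, 731 against 395 of 8852, and how many runs those counts alone would give was not tested. The longest held 7 genes, CG11891, CG11878, CG10513, CG10514, CG11892, CG31300 and CG31104, with differences of -1.04 to -2.63. Npc2g and Npc2h formed another with CG15543. Neighbours of a family can share probe sequence, and whether these probe sets cross-hybridise was not tested.

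Set beside the pools with curcumin, muscle and standard respiratory lists had medians below 0 on both diets, and several testis, seminal fluid and odorant-binding lists had medians further below 0 without it. Troponins and calcium-binding proteins had medians of -1.53 without and -1.71 with curcumin, thin filament, Z-disc and M-line genes of -0.44 and -0.82, thick filament genes of -0.67 and -0.89, and complex I of -0.61 and -0.81. Duplicate respiratory copies had -1.26 and -0.27, testis-type proteasome copies -0.86 and -0.09, seminal fluid genes -0.93 and 0.13, and odorant-binding proteins -0.69 and -0.12. With 1 array per group the difference between the diets could not be tested, and both the second pair and the first hold a single old pool. Over all genes, 498 of 8743 (5.7%) were at least 2-fold apart between old and young flies with curcumin. The direction was split otherwise than without curcumin. Among the 8703 genes outside the immune and digestive lists, 340 were at least 2-fold higher in old flies with curcumin and 106 lower, against 360 and 674 without. Of the 360 genes higher without curcumin, 340 had the same sign with it and 147 were past 2-fold, and of the 674 lower genes 552 and 63. No gene was past 2-fold in opposite directions.

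**Figure D5:**
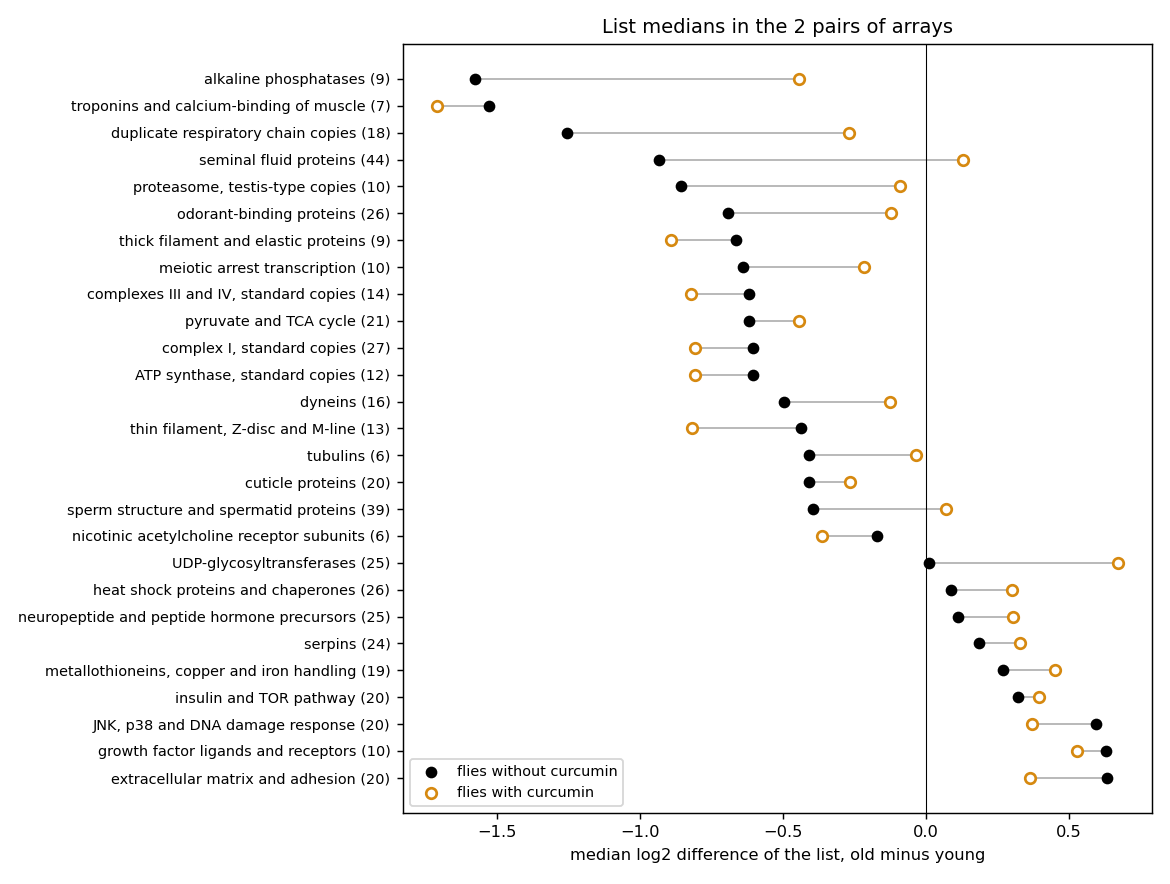
Median log2 difference, old minus young, of each list with at least 6 measured genes and a median of 0.3 or more from 0 in either pair, for flies without curcumin (filled) and with curcumin (open). Muscle and standard respiratory lists are negative in both pairs, and seminal fluid genes are at -0.93 without curcumin and 0.13 with it.

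Genes with several probe sets show how far the value of a single one can be relied on. In 349 genes with at least 2 probe sets measured on both arrays, the differences of the 2 brightest were a median of 0.30 apart on the log2 scale. Of 24 genes with the brightest past 2-fold, all 24 had the same sign in the next probe set and 11 were past 2-fold there too. In 3 genes, MICU3, Strn-Mlck and tkv, 2 probe sets had opposite signs and one was past 2-fold. The share of genes at least 2-fold higher was 1.72% for genes of mean log2 signal 5 to 6 and 8.53% at 10 to 11 but 3.82% at 11 to 14, whereas the lower share lay between 5.95% and 8.99% in all 7 level classes.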

How the data were processed

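RNA from 4 whole-fly pools was measured on 4 Affymetrix Drosophila Genome 2.0 arrays, 1 per group, and groups were taken from the labels. The authors deposited 1 value per probe set, summarised with MAS5 per the submitters' processing notes, in a version not given in the sources used here. Values as deposited were treated as log2 signals, since they range from -4.67 to 13.4 and give trimmed mean signals of 151 in the old and 149 in the young pool without curcumin after back-transformation. No further scaling was applied, and the old minus young difference was computed without a test.

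Of 18769 probe sets, 13647 named 1 gene in the platform table, 402 several and 4720 none, and 13544 of the single-gene ones matched the gene table of assembly Release 6. For 1094 genes with more than 1 probe set, the brightest over the 2 arrays stood for the gene. Values below log2 5 were set to 5, so that a difference against such a value is a bound, and genes below it on both arrays were not compared. Genes were called past 2-fold.

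Named genes were the 25 furthest in each direction with both ages measured and no immune or digestive list, the 8 bounds furthest out each way, the 8 of highest signal among genes past 2-fold, and up to 4 members of each list in each direction. The genes of marker lists and further list members are given as examples, and were chosen after their values were seen. The members and the 54 gene lists were chosen with earlier results of these data known, and 6 more lists were added after the values were seen. Gene lists were matched by symbol or synonym. No sequence is shown, because no sequence table was used here. The script was tested on simulated data. Computation used Python 3.11.15, numpy 2.4.6, pandas 2.3.3 and matplotlib 3.10.9. Alternatives were other scalings, floors, probe-set rules and fold thresholds.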

Additional observations from a re-analysis of the deposited data

Results flagged for a closer look

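Some probe sets left out of the comparison were also past 2-fold between the ages. Among the genes compared, 4.46% were at least 2-fold higher in old flies and 8.26% lower. Of 812 probe sets with no gene name that reached 32 signal units on the old or the young array, 43 were higher by 2-fold or more in old flies and 23 lower, with log2 differences of up to 4.36. Of 297 probe sets that name several genes, 20 were higher by that much and 20 lower, and the extremes were 4.34 and -3.06. They were set apart because they lie outside the single-gene comparison, and the genes behind them are not named here.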

How the results depend on the processing

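At 2-fold, 395 genes were higher and 731 lower in old flies. Equal array medians gave 675 higher and 540 lower, and moved the share of higher genes among those called to 55.6%. A floor at log2 6 gave 314 and 468. A 1.5-fold threshold gave 1391 and 1531, and a 3-fold one 85 and 229. An equal 2% trimmed mean (361 and 754), quantile normalization (387 and 695), a floor at log2 4 (464 and 982), no floor (464 and 982), measurement on both arrays (359 and 598) and the mean over probe sets (391 and 728) changed each count by less than 1.5 times. The named genes include some that were not past 2-fold to begin with. Of 276 named genes, 19 were past 2-fold at first and no longer so under equal medians, and 8 under quantile normalization. With a floor at log2 6 this held for 39 of the 258 still compared. No named gene past 2-fold changed sign under these settings. Of 54 list medians, 15 changed sign under equal array medians, among them those of cytosolic ribosomal proteins (0.13), mitochondrial ribosomal proteins (0.05) and glutathione transferases (0.13). No array could be left out, since each group has 1. No paired analysis was possible because each group has 1 array and the labels give no replicate numbers. Signals near the floor limit the values of dim genes, and no signal below it was ordered.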
